A study of Tribolium castaneum with 17 samples.

Results

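Testis was compared with ovary in adult red flour beetles (*Tribolium castaneum*), over 12302 gene models and 5 of the 17 RNAseq libraries of the study. The testis libraries are S16 and S17 and the ovary libraries are S13, S14 and S15. Both gonads came from wild type beetles of strain GA2 at 4 days after eclosion, with the organs of 30 beetles pooled in each library; animals had been sorted by sex as pupae. The other 12 libraries are used here only for the spread of each gene and as a background of levels, and they are 3 each of male carcass and female carcass (the adult body without its gonads, same age and pool size) and of embryos aged 0-5 hr or 6-11 hr. A library is a pool of whole organs, so germ cells and the somatic cells around them were sequenced together, and in such bulk samples fewer cells of a type and less RNA per cell cannot be told apart. Levels are given as CPM, the reads of a gene set against the total of its library, with a further scaling by the authors that allows for libraries of different makeup. They are not divided by gene length, so levels are compared between libraries and not between genes.

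Spermatogenesis and oogenesis both start from germ cells and then take very different courses. In the testis, germ cells divide, pass through meiosis and are rebuilt into sperm, a change of shape that needs a large supply of microtubules, motor proteins and a sperm tail. In insect ovaries of the kind found in beetles, nurse cells make RNA and protein that are passed to the growing oocyte, and somatic follicle cells surround the oocyte and lay down the eggshell. Part of the oocyte's RNA is kept for the early embryo.

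The recovered read totals were 22374614 and 18664366 in testis libraries S16 and S17, against 26272008, 34847471 and 20588892 in ovary libraries S13, S14 and S15, so that 1 read was worth 0.0217 to 0.0589 CPM in these 5 libraries. The testis libraries lay further apart than the ovary libraries, with a median standard deviation of 0.28 on the log2 scale over all genes in testis (n = 2) and 0.16 in ovary (n = 3). In testis, 29 genes were at least 4-fold higher in S16 than in S17, of which 23 had their highest mean in male carcass (11 without male carcass library S11), and 163 genes were at least 4-fold higher in S17. Of these 163 genes, 76 had their highest mean in a carcass and 30 in ovary. Among the ovary libraries, S15 was 16-fold or more above the mean of S13 and S14 (on log2 of CPM + 1) for 11 genes at 100 CPM or more. These 11 genes took 7.11% of the reads of S15, against 0.158% and 0.163% in S13 and S14. The means of all 11 in female carcass exceeded their levels in S13 and S14, and none of them was called different between the gonads. The ovary library S13 stood apart in another way, with 6 genes at 50 CPM or more that were 16-fold above the other ovary libraries, and these 6 genes had 71.5 to 2635 CPM in testis and means of 184 to 2791 CPM in male carcass, where library S11 was the highest for the 3 of them that are described further on. Of the 6, 5 were called higher in testis than in ovary, beside 22.1% of all gene models.

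Markers named by the study were read first as a check of the labels. The testis marker TC009035, the beta2-tubulin of sperm, had 4791 and 4347 CPM in testis and 2.32 to 12.9 CPM in ovary, and the ovary gene TC034053 had 33.7 and 62.1 CPM in testis and 455 to 549 CPM in ovary. The muscle protein gene flightin (TC010476) had 7.65 and 13.8 CPM in testis and 2.62 to 4.73 CPM in ovary, against a mean of 933 CPM in male carcass and of 802 CPM in female carcass. The other ovary markers, loco and quail, had higher means in both carcasses than in ovary, so they did not mark ovary among these tissues. The study chose these genes in part on the same libraries, so they check the labels and are not independent evidence of a direction.

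Genes of one gonad were present at trace levels in the other. A testis set of 332 genes was defined without the ovary libraries, as a testis mean of at least 200 CPM that was at least 64-fold above embryos and female carcass. The median gene of this set stood at 0.420%, 0.219% and 0.505% of its testis mean in ovary libraries S13, S14 and S15, against 0.0839% to 0.178% in the female carcass libraries and 1.87% to 5.18% in the male carcass libraries. Library S14 was thus the lowest of the ovary libraries. The 3 ovary libraries lay above the 3 female carcass libraries, but the rule of the set held female carcass low and left ovary free. An ovary set of 69 genes, at 50 CPM or more in ovary and at least 16-fold above male carcass, had a median of 1.77% of the ovary mean in testis library S16 and 3.45% in S17, against 1.17% to 1.58% in the male carcass libraries that helped to define it. Female carcass library S7 stood apart in this set, at 8.51% beside 1.48% in S8 and 1.14% in S9. A carcass set of 485 genes, at 100 CPM or more in both carcasses and at least 16-fold above embryos, stood at 8.2% and 12.4% of the carcass mean in testis libraries S16 and S17 and at 7.58% to 7.97% in ovary. The part of carried-over tissue or of reads assigned to the wrong library in these traces was not tested, and the sets were chosen by level and carry no test.

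**Figure D1:**
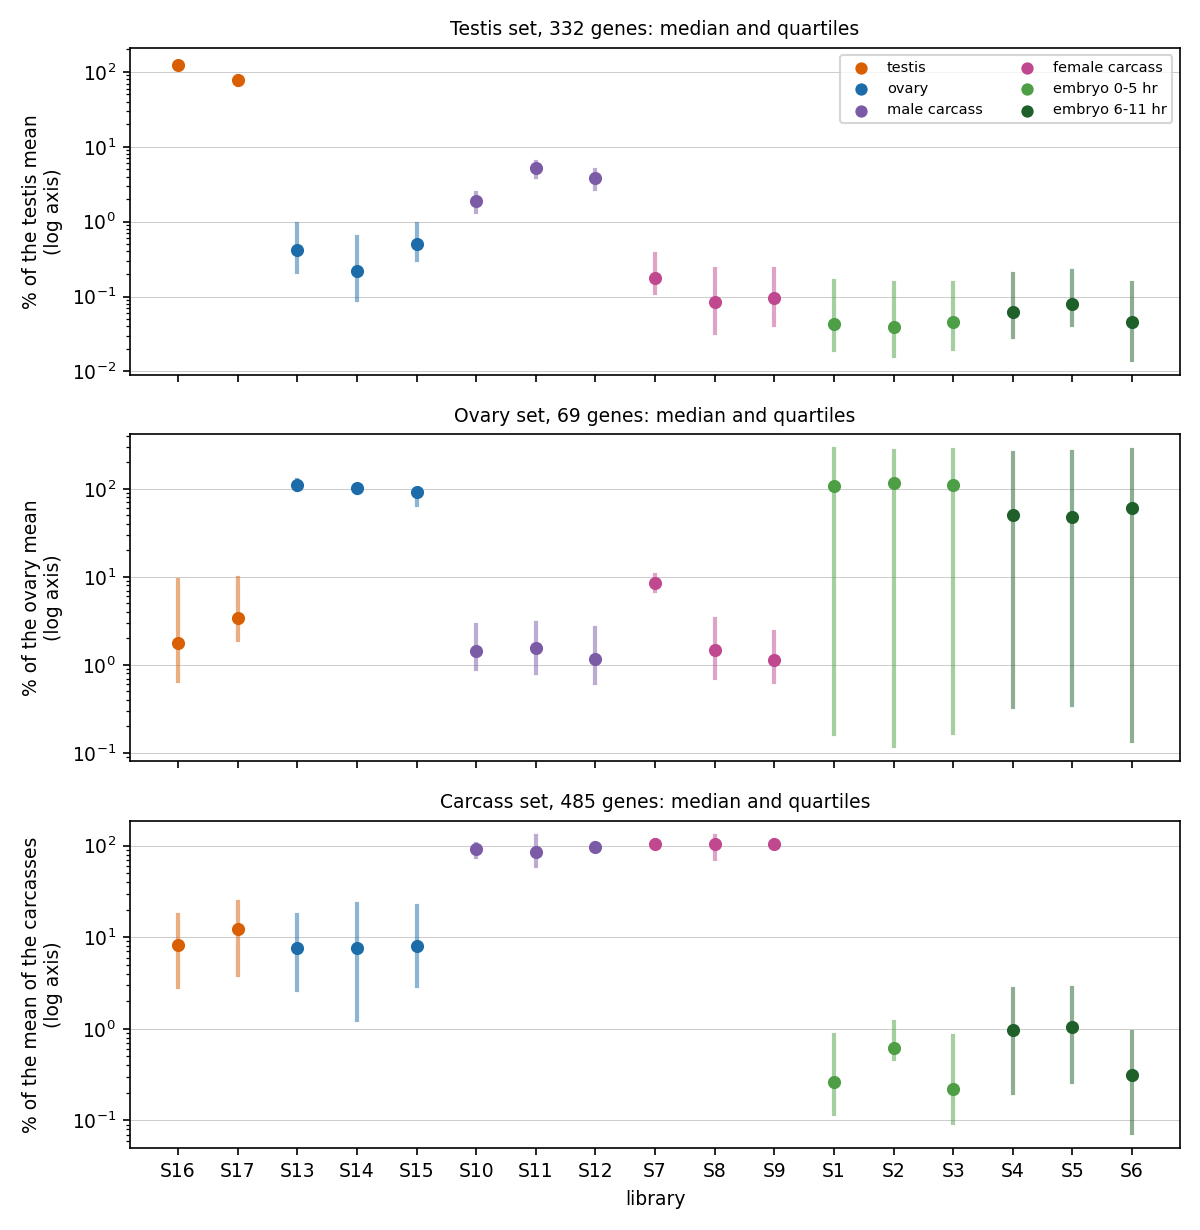
Level of the testis set (332 genes), the ovary set (69 genes) and the carcass set (485 genes) in each of the 17 libraries, as a percentage of the mean of the tissue that defined the set, on a log axis. Points are medians over the genes and bars run between the quartiles. In the testis set the ovary libraries lie at 0.219% to 0.505%, and in the ovary set the testis libraries lie at 1.77% and 3.45%.

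The first question of the comparison is how many genes differ between the gonads and in which direction. A gene was called when its levels differed by at least 1 on the log2 scale, which is 2-fold, with a Benjamini-Hochberg adjusted p under 0.01 in limma on log2(CPM + 1), fitted over all 17 libraries. By this rule 2716 genes were higher in testis than in ovary, or 22.1% of all gene models, and 2614 genes were lower, or 21.2%. The remaining 6972 genes were not called. The testis and ovary libraries did not overlap for 9362 genes, or 76.1% of all gene models, and 5325 of the called genes were among these. The median log2 difference of testis over ovary over all genes was -0.04. Scaled by library totals alone, the median was -0.64, with 1690 genes higher and 4569 lower, so the higher genes made up 51.0% of the calls as deposited and 27.0% under library totals. The near balance of the directions therefore holds for the authors' scaling and not for library totals.

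Large differences were mostly on the side of testis. At 16-fold or more (4 on the log2 scale), 668 genes were higher in testis and 81 were lower. At 64-fold or more the numbers were 353 higher and 14 lower, and at 256-fold or more 75 genes were higher and 0 were lower. The excess was seen under library totals as well, with 577 genes higher and 149 lower at 16-fold or more. Adding 1 to each CPM holds down the differences of genes with few reads, and with 0.1 added the numbers at 16-fold or more were 717 higher and 178 lower. At 64-fold or more they were 408 higher and 30 lower with 0.1 added. The edgeR likelihood ratio test gave 411 and 36 there, and DESeq2 gave 416 and 29. In limma with 1 added, 2 genes were lower at 64-fold or more without testis library S16, and 22 without testis library S17. The trace levels above were 1.77% and 3.45% for the ovary set in testis, and 0.219% to 0.505% for the testis set in ovary. These sets were cut by unlike rules. The testis set asked for 200 CPM and 64-fold over embryos and female carcass, and the ovary set for 50 CPM and 16-fold over male carcass. The levels therefore do not compare the directions on like terms. The part of the traces in the excess of large differences was not tested.

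**Figure D2:**
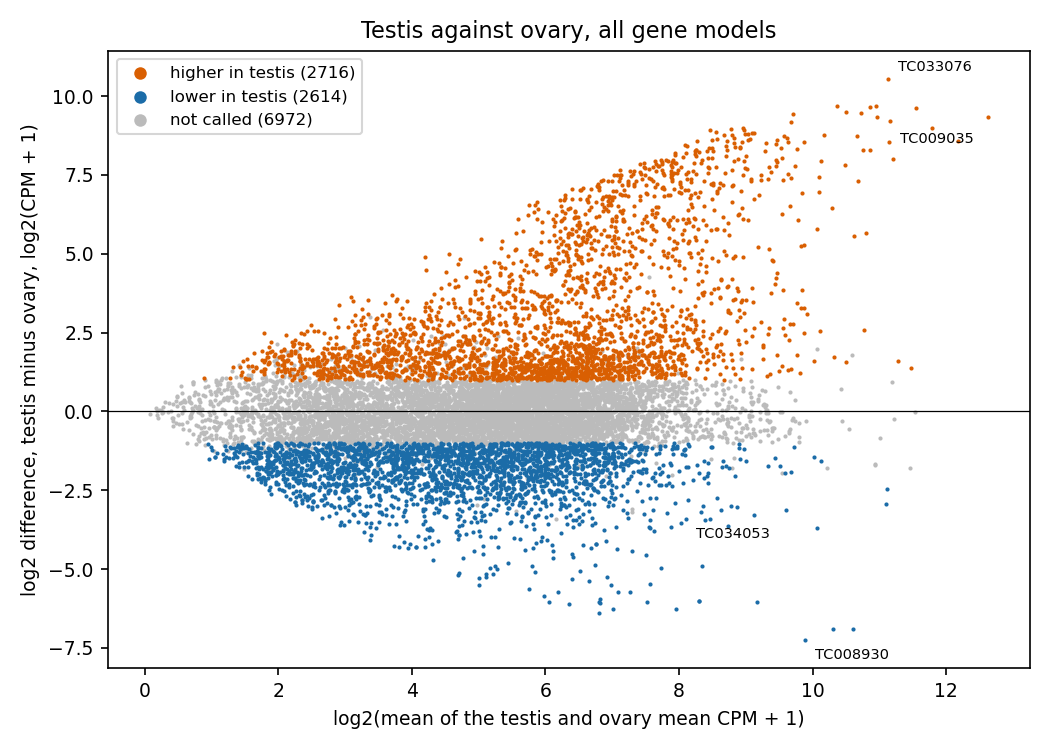
Log2 difference of testis over ovary (vertical axis, log2 of CPM + 1) against the log2 of the mean CPM of the gonads + 1 (horizontal axis) for 12302 gene models. Orange points are the 2716 genes higher in testis, blue points the 2614 genes lower in testis and grey points the 6972 genes not called. Points above 5 are far more numerous than points below -5.

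The 10 genes with the largest differences in favour of testis had testis levels of 1450.2 to 14115 CPM and ovary levels of 0.152 to 29.9 CPM. Neither the files nor the reference table give these gene models a name, apart from the identifier. TC033076 had 5133 and 3799.7 CPM in testis libraries S16 and S17, against 2.48, 0.412 and 4.20 CPM in ovary libraries S13, S14 and S15 (log2 difference 10.55, SE 0.53, limma adjusted p = 1.57e-10). Its level in testis was above that in male carcass (mean 66.3 CPM), and female carcass (2.15 CPM) and embryos (0.335 CPM at 0-5 hr) were as low as ovary or lower. TC002436 had 3336 and 1946 CPM in testis, against 2.86, 0.152 and 5.49 CPM in ovary (log2 difference 9.70, SE 0.62, limma adjusted p = 1.92e-09). TC004022 had 5155 and 2731 CPM in testis, against 4.84, 0.564 and 9.38 CPM in ovary (log2 difference 9.68, SE 0.63, limma adjusted p = 3.16e-09). For TC007207 the testis libraries had 4488 and 2966 CPM and the ovary libraries 5.62, 0.217 and 10.3 CPM.

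The others were TC008268, TC016377, TC010260, TC007828, TC015787 and TC007493, with log2 differences of 9.32 to 9.61. All 10 genes were lowest in S14 among the ovary libraries, where they stood at 0.00575% to 0.0722% of the testis mean, and highest in S15, at 0.0940% to 0.317%. The 10 genes were picked by size of difference among called genes whose testis and ovary libraries do not overlap. Their lack of overlap therefore follows from the choice. No call was lost when a library was left out, which adds little for genes picked by size, but the size of the difference moved. The 10 values ran from 9.32 to 10.55 with all libraries, from 8.50 to 10.02 without ovary library S14, and from 9.65 to 10.96 without ovary library S15. For TC010260 the log2 difference was 9.45, and it was 8.50 without S14 and 10.10 without S15. Without S14 it was 8.99 for TC002436, 8.91 for TC004022, 8.72 for TC007207, 8.70 for TC008268 and 8.72 for TC016377. Without S15 it was 10.28 for TC004022, 10.33 for TC007207 and 10.21 for TC008268. With S14 as the single ovary library, a setting added once the levels of S14 were known, the 10 values ran from 10.28 to 11.61. In male carcass the 10 genes had means of 59.9 to 334 CPM, above their 0.696 to 8.62 CPM in female carcass.

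Counted by reads, with no account of gene length, the called genes with the most reads in testis were TC015787, TC001175, TC006027, TC008268 and TC033701. TC015787 had 14115 and 11130.1 CPM in testis, against 22.8, 9.11 and 29.9 CPM in ovary. TC001175 had 9029.7 and 9479.5 CPM in testis, against 28.4, 12.9 and 34.0 CPM in ovary (log2 difference 8.57, SE 0.51, limma adjusted p = 1.39e-09). The testis libraries of TC001175 lay close together, whereas S16 was above S17 in all 10 genes with the largest differences. TC006027 had 7154 and 6899 CPM in testis, against 18.2, 4.25 and 24.3 CPM in ovary, and its log2 difference of 9.01 was 8.32 without ovary library S14. TC033701 had 4655 and 4753 CPM in testis, against 19.7, 9.83 and 26.9 CPM in ovary (log2 difference 8.0, SE 0.46).

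**Figure D3:**
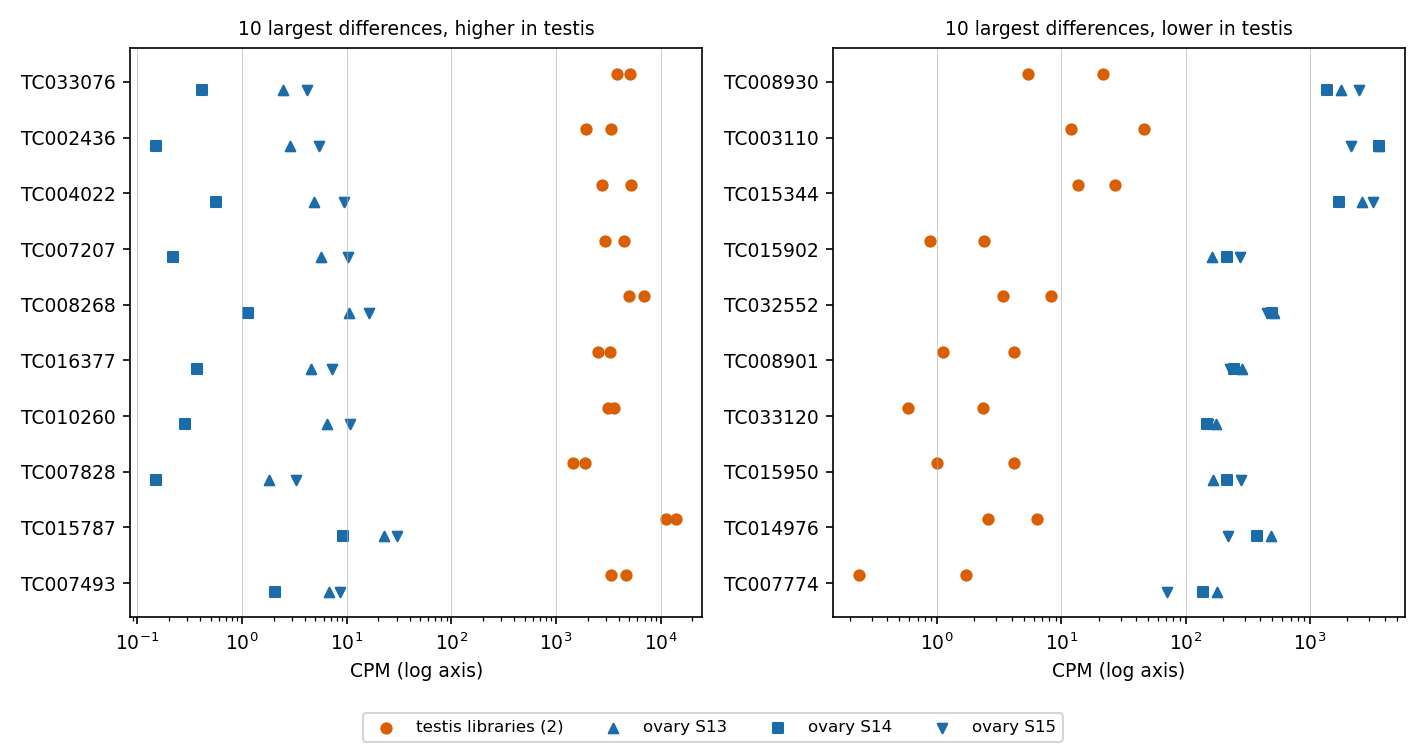
CPM on a log axis in each testis and ovary library for the 10 genes with the largest log2 difference in each direction among called genes whose libraries do not overlap. Orange circles are the testis libraries and blue symbols the ovary libraries. On the side of testis the lowest ovary library is S14 in all 10 genes, and on the side of ovary the lower testis point is S16 in all 10 genes.

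The 10 genes with the largest differences in favour of ovary had testis levels of 0.235 to 46.8 CPM and ovary levels of 71.5 to 3586 CPM. TC008930 had 5.36 and 21.6 CPM in testis libraries S16 and S17, against 1777, 1364 and 2470.4 CPM in ovary libraries S13, S14 and S15 (log2 difference of testis over ovary -7.25, SE 0.79, limma adjusted p = 1.52e-06). TC003110 had 12.1 and 46.8 CPM in testis, against 3575, 3586 and 2139.7 CPM in ovary (-6.92, SE 0.84, limma adjusted p = 4.78e-06). TC015344 had 13.7 and 27.0 CPM in testis, against 2607, 1718 and 3194 CPM in ovary (-6.90, SE 0.84, limma adjusted p = 4.78e-06). Testis library S17 was above S16 in all 10 genes, with 1.08% to 1.89% of the ovary mean in S17 and 0.181% to 0.715% in S16. The 10 values ran from -7.25 to -6.06 with all libraries, from -6.44 to -5.39 without testis library S16, and from -8.16 to -6.59 without testis library S17. For TC008930 the log2 difference was -6.33 without S16 and -8.16 without S17, and for TC003110 it was -5.98 and -7.85. TC008901 had -6.25, and -5.61 without S16 and -6.90 without S17.

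These ovary genes differed widely in level when read in embryos. TC008930, TC003110 and TC015344 had means of 0.732, 1.5 and 0.990 CPM in embryos of 0-5 hr, and TC014976 and TC007774 had 0.148 and 0.0685 CPM there. TC032552, by contrast, had 3.41 and 8.2 CPM in testis and 515, 499.8 and 454 CPM in ovary, and its mean was 1532 CPM in embryos of 0-5 hr and 498 CPM at 6-11 hr. TC008901 had 1.12 and 4.19 CPM in testis and 285, 244 and 229.7 CPM in ovary, with embryo means of 719.7 and 861 CPM. TC033120 followed the same pattern, with 0.589 and 2.35 CPM in testis, 177, 149 and 152 CPM in ovary and embryo means of 816 and 986 CPM. Of the 81 genes that were at least 16-fold lower in testis than in ovary, 32 had a mean in embryos of 0-5 hr at or above that of ovary, 35 had less than 1 CPM in those embryos, and 14 lay between. In the ovary set named above, whose rule did not use embryos, the lower quartile in embryos of 0-5 hr was 0.119% to 0.170% of the ovary mean and the upper quartile 268% to 282%, so the set was spread widely as well. Of its 69 genes, 61 were called lower in testis, beside 21.2% of all gene models, but its rule asked for a high level in ovary. The set rests on the same ovary libraries and was not kept free of the 81 genes, so it is not a separate check. Ovary genes thus ranged from under 1 CPM in the early embryo to levels above those of ovary.

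TC015902 and TC015950 were also among the 10 genes, with 0.883 and 2.41 CPM and with 1.00 and 4.19 CPM in testis, against 163 to 277 CPM and 165 to 281 CPM in ovary. Their reads stood in a ratio of 0.986 to 0.993 in the ovary libraries, but TC015902 had 42 and TC015950 73 reads in testis library S17, a ratio of 0.575. Whether the models share reads was not tested, and the values of each are uncertain. For TC015950 the log2 difference of -6.07 was -5.39 without testis library S16 and -6.76 without testis library S17.

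By reads, the called genes with the highest CPM in ovary were TC030701, TC031771, TC003110, TC015344 and TC003326, and TC030701 and TC003326 among them were higher in the carcasses than in ovary. TC030701 had 429 and 564 CPM in testis, against 3268, 3376 and 5001 CPM in ovary (log2 difference -2.95, SE 0.81, limma adjusted p = 0.0048), while its mean was 7741 CPM in male carcass and 9274 CPM in female carcass. It was no longer called without ovary library S15 (limma adjusted p = 0.0152), without testis library S16 (0.0423) or without testis library S17 (0.0215). TC003326 had 102 and 182 CPM in testis, against 919, 3082 and 1984 CPM in ovary, and was not called without testis library S16 (limma adjusted p = 0.0334) or S17 (0.0101). Its mean was 4988 CPM in male carcass and 6011 CPM in female carcass. TC031771 was steadier, with 542 and 828 CPM in testis against 3640.0, 4190.2 and 3385 CPM in ovary (log2 difference -2.47, SE 0.14, limma adjusted p = 7.24e-10), and its means in carcasses and embryos were 3589 to 4692 CPM, so that testis was the low tissue.

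A few genes had almost no reads in one gonad. In 6 genes no ovary library had more than 3 reads, and in 16 genes no testis library had more than 3 reads. Of the first, TC000498 had 846 and 332 reads in testis libraries S16 and S17 (49.8 and 19.0 CPM), against 3, 2 and 2 reads in ovary, and was called (log2 difference 4.90, limma adjusted p = 4.74e-09). After scaling, its testis to ovary ratio was 530.4 with an exact 95% interval of 257 to 1322, which covers counting error only. The log2 difference of TC000498 was 4.23 without testis library S16 and 5.57 without S17. TC014914 had 621 reads in S16 and 16 in S17, against 1, 2 and 3 reads in ovary, and TC014915 had 184 and 15 reads in testis, against 2, 3 and 2 reads. Neither was called (limma adjusted p = 0.0308 and 0.0375), in this fit, but edgeR and DESeq2 on the reads called both, as did limma without testis library S17 (log2 differences 5.15 and 3.47). In both the high testis library was S16, and their male carcass means of 28.9 and 12.7 CPM rested on S11 (73.2 and 30.1 CPM, against 3.50 to 7.06 CPM in S10 and S12). TC013144 had 17 and 12 reads in testis, against 2 in each ovary library, a ratio of 15.2 (exact 95% interval 6.21 to 44.9). It was not called by limma with 1 added to each CPM (adjusted p = 0.011), where 1 CPM is close to its testis level, and was called with 0.1 added and by edgeR and DESeq2 on the reads. TC009958, with 4 and 2 reads in testis and 2, 3 and 3 in ovary, was not called in any setting.

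On the other side, TC006578 had 2 and 3 reads in testis, against 618, 964 and 462 reads in ovary (log2 difference of testis over ovary -4.09, SE 0.40, limma adjusted p = 2.38e-07). Its ratio of ovary over testis was 129.7 with an exact 95% interval of 55.5 to 399.9. TC004805 had 1 and 2 reads in testis, against 299, 347 and 178 reads in ovary, a ratio of ovary over testis of 87.2 (exact 95% interval 29.7 to 423). Both genes were near absent from the carcasses too, at means of 0.472 and 0.580 CPM for TC006578 and 0.0693 and 0.105 CPM for TC004805 in male and female carcass. TC008328 had 0 and 1 read in testis, against 202, 207 and 158 reads in ovary, a ratio of 179.9 (exact 95% interval 32.2 to 7118), and its means in the carcasses and embryos were 0.0198 to 0.109 CPM. TC007272 and TC013578 had 2 or 3 reads in each testis library and 180 to 437 reads in each ovary library. All 5 of these genes were called lower in testis, with log2 differences of -4.09 to -2.62. They were picked for the highest ovary CPM among the 16 genes, so these calls largely follow from the choice. Of the 16 genes, 8 were called lower, beside 21.2% of all gene models. Of the 6 genes with almost no reads in ovary, 1 was called higher, beside 22.1%.

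Among the testis genes looked up, 3 had a gene model identifier. The study named all 3 for high expression in testis in these same libraries, so their direction here is not independent evidence. Beta2-tubulin (TC009035) is the homolog of the fly tubulin that builds the meiotic spindle and sperm tail, and it had 4791 and 4347 CPM in testis, against 8.90, 2.32 and 12.9 CPM in ovary (log2 difference 9.21, SE 0.51, limma adjusted p = 4.13e-10). Without ovary library S14 its log2 difference was 8.61. Rad50 (TC006703), an ATPase that acts in the repair of DNA double-strand breaks and in meiotic recombination, had 1060.3 and 804 CPM in testis, against 11.9, 9.22 and 12.9 CPM in ovary (log2 difference 6.24, SE 0.34, limma adjusted p = 2.91e-10). The ovary libraries of Rad50 lay close together, in contrast to those of beta2-tubulin, and S14 was only slightly below the others. TC032055, the homolog of a fly gene with a domain of unknown function, had 1437 and 540.3 CPM in testis, against 0.751, 0.282 and 1.32 CPM in ovary (log2 difference 8.99, SE 0.40, limma adjusted p = 7.42e-11). Its testis libraries differed more than 2-fold, and the log2 difference was 8.29 without testis library S16 and 9.69 without S17.

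The other beta-tubulins did not follow beta2-tubulin. Beta-tubulins pair with alpha-tubulins to form microtubules in every cell, and insects have several genes for them. Of the 4 beta-tubulins 1 was higher in testis, 1 was lower and 2 were not called, with a median log2 difference of 0.89 beside -0.04 over all genes. These counts stand beside 22.1% higher and 21.2% lower among all gene models, so 1 of 4 each way is near the share of all genes. TC009589 was lower in testis, with 288 and 299 CPM, against 946, 1107 and 923 CPM in ovary (log2 difference -1.75, SE 0.14, limma adjusted p = 2.82e-08). It had higher levels still in embryos, with means of 1505 CPM at 0-5 hr and 1863 CPM at 6-11 hr. TC034766 had 71.4 and 76.9 CPM in testis, against 44.5, 41.1 and 47.0 CPM in ovary, and missed the threshold (log2 difference 0.74, 95% interval 0.23 to 1.24, limma adjusted p = 0.0121). TC010829 overlapped between the gonads, with 5.89 and 13.7 CPM in testis and 6.54, 1.87 and 4.31 CPM in ovary, and was not called (log2 difference 1.05, limma adjusted p = 0.0205), while its means were 116 CPM in male carcass and 105 CPM in female carcass. TC010829 was called higher in testis without ovary library S13 (1.37) and without testis library S16 (1.60), and its value was 0.67 without S14 and 0.50 without S17. The directions of these 4 genes were the same under library totals.

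**Figure D4:**
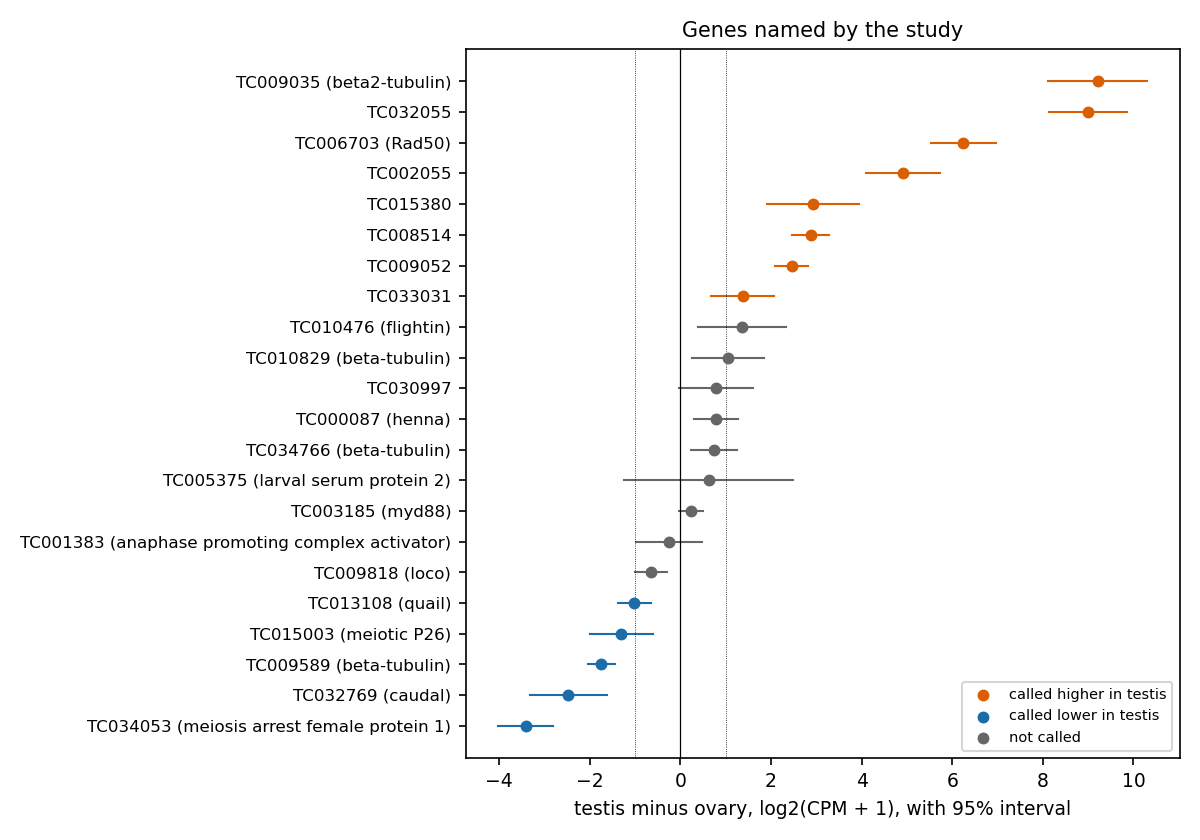
Log2 difference of testis over ovary with its 95% interval from limma for the 22 genes with an identifier in the study. Orange marks 8 genes called higher in testis, blue 5 genes called lower and grey 9 genes not called, and dotted lines mark the 2-fold threshold. Beta2-tubulin, at 9.21, is the highest and TC034053, at -3.41, the lowest.

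Of 3 homologs of fly genes that act in the ovary, 2 were lower in testis than in ovary and 1 was not called, beside 21.2% lower among all gene models, with a median log2 difference of -1.01. The study chose these genes in part on the same libraries, and named TC034053 as higher in ovary than in testis. The count is therefore not independent evidence of a direction. TC034053 is the homolog of meiosis arrest female protein 1, which is needed for oocyte meiosis in mammals, and it had 33.7 and 62.1 CPM in testis, against 455, 549 and 493 CPM in ovary (log2 difference -3.41, SE 0.29, limma adjusted p = 4.50e-08). It was higher again in embryos, with means of 1250.0 CPM at 0-5 hr and 1006 CPM at 6-11 hr, and its testis level was close to that of the carcasses (means of 32.5 CPM in males and 51.6 CPM in females). Quail (TC013108), in flies an actin-bundling protein of the nurse cells, had 12.6 and 14.2 CPM in testis, against 27.6, 28.4 and 28.1 CPM in ovary (log2 difference -1.01, SE 0.17, limma adjusted p = 7.97e-05). This gene sat at the threshold, was not called without testis library S16 (log2 difference -0.93) or with RLE factors (-0.99), and was higher in both carcasses (38.8 and 60.5 CPM) than in ovary. Loco (TC009818), in flies a regulator of G protein signalling, had 56.1 and 56.9 CPM in testis, against 82.0, 98.6 and 88.8 CPM in ovary. Its libraries did not overlap, and its log2 difference of -0.65 (95% interval -1.01 to -0.30) did not reach 2-fold, except under library totals (-1.30). Loco was higher in both carcasses than in ovary as well, with means of 146 and 197 CPM.

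A gene that the study placed in the germ line of both sexes did not separate the gonads. TC001383, the homolog of an activator of the anaphase promoting complex, the ubiquitin ligase that drives exit from mitosis and meiosis, had 167 and 119.7 CPM in testis and 168, 175 and 165 CPM in ovary (log2 difference -0.26, 95% interval -0.98 to 0.47, limma adjusted p = 0.511). The carcass means were 9.14 and 9.89 CPM, so both gonads lay far above the rest of the body. The study chose this gene by that contrast in the same libraries, so the excess over carcass is not independent evidence. By level alone, 228 genes were at 5 CPM or more in all 5 gonad libraries and under 5 CPM in all 6 carcass libraries. Of these, 47 were called higher in testis, 13 lower and 168 were not called between the gonads, beside 22.1% higher and 21.2% lower among all gene models. The set was cut by the level in all gonad libraries, so it carries no test.

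Genes named for early development were split between the gonads. Caudal (TC032769), a homeobox gene of posterior patterning, had 2.00 and 5.74 CPM in testis, against 27.6, 22 and 22.6 CPM in ovary (log2 difference -2.47, SE 0.39, limma adjusted p = 4.92e-05). Meiotic P26 (TC015003), in flies a regulator of germ cell differentiation, had 2.06 and 3.39 CPM in testis, against 8.68, 8.2 and 7.27 CPM in ovary (log2 difference -1.30, SE 0.33, limma adjusted p = 0.00252), and was not called without testis library S16 (-1.04, limma adjusted p = 0.038). TC002055, for which no role is given here, went the other way, with 721 and 400.0 CPM in testis, against 18.0, 17.2 and 15.5 CPM in ovary (log2 difference 4.91, SE 0.39, limma adjusted p = 2.15e-08). Its embryo means were 27.2 and 26.6 CPM. Myd88 (TC003185), the adaptor of the Toll pathway, overlapped, with 71.9 and 51.5 CPM in testis and 54.8, 48.9 and 52.1 CPM in ovary, and its difference of 0.23 became negative under library totals.

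Of 6 genes that the study listed as zygotic, 4 were higher in testis than in ovary and 2 were not called, beside 22.1% higher among all gene models, with a median log2 difference of 1.91. TC008514 had 689 and 465 CPM in testis, against 80.5, 66.3 and 82.5 CPM in ovary (log2 difference 2.88, SE 0.19, limma adjusted p = 3.08e-09). TC009052 had 105 and 108 CPM in testis, against 19.1, 16.7 and 20.2 CPM in ovary (log2 difference 2.45, SE 0.17, limma adjusted p = 4.55e-09). TC015380 had 61.1 and 29.7 CPM in testis, against 3.45, 5.66 and 5.41 CPM in ovary (log2 difference 2.93, SE 0.47). All 3 genes were expressed in the carcasses, at means of 25.0 to 539 CPM, and their means in embryos of 0-5 hr were 0.264 to 24.7 CPM. TC033031 had 11.8 and 9.18 CPM in testis, against 3.42, 3.06 and 3.75 CPM in ovary (log2 difference 1.37), and was not called without testis library S16 (limma adjusted p = 0.019) or under library totals (log2 difference 0.83). TC030997 was not called. TC005375, the homolog of larval serum protein 2, a storage protein, had 0.942 and 3.21 CPM in testis and 0.757 to 0.911 CPM in ovary, was not called, and had a mean of 55.9 CPM in embryos of 6-11 hr.

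The 2 carcass genes of the study with an identifier were not called between the gonads. Flightin (TC010476), a protein of the flight muscle, had the values given above and a log2 difference of 1.36 (95% interval 0.38 to 2.34, limma adjusted p = 0.0153). Henna (TC000087), in flies the phenylalanine hydroxylase of pigment synthesis, had 41.0 and 43.2 CPM in testis, against 24.7, 24.1 and 23.6 CPM in ovary (log2 difference 0.78, 95% interval 0.30 to 1.26). Both intervals lay above 0, beside the higher level of the carcass set in testis library S17, and the part of carcass tissue in these values was not tested.

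A second view of named genes came from the reference table of RefSeq, which carries the older gene numbers for 58 of its 15518 genes (assembly icTriCast1.1). Through these numbers 45 gene models were matched, 32 of them to a symbol. The match was made by number alone, but only gene models left by the authors' filter on level could be matched. Of the 45, 9 were higher in testis, 10 were lower and 26 were not called, with a median log2 difference of 0.12 beside -0.04 over all genes. The counts stand beside 22.1% higher and 21.2% lower among all gene models, so the matched genes were called about as often as all genes. The gene with the largest difference was ITR, the receptor of inotocin, the insect relative of oxytocin and vasopressin. ITR (TC016363) had 557 and 291 CPM in testis, against 11.0, 11.2 and 13.7 CPM in ovary (log2 difference 4.97, SE 0.29, limma adjusted p = 6.30e-10). Its means were 14.2 CPM in male carcass, 12.6 CPM in female carcass and 0.718 CPM in embryos of 0-5 hr, so testis alone stood high among the 6 groups. The log2 difference of ITR lay between 4.51 and 5.44 when each gonad library was left out in turn.

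Other genes of signalling were level or lower in testis. Of ITR, the octopamine and tyramine receptor Oct-TyrR, the ion channel painless and the RYamide peptide gene, 1 was higher, 2 were lower and 1 was not called, beside 22.1% higher and 21.2% lower among all gene models. Painless (TC007561) had 17.4 and 17.5 CPM in testis, against 45.1, 43.3 and 45.6 CPM in ovary (log2 difference -1.31, SE 0.20, limma adjusted p = 3.87e-05). RYamide (TC008650) had 0.883 and 0.688 CPM in testis, against 4.12, 4.49 and 4.77 CPM in ovary (log2 difference -1.61), which was not called with 5 added to each CPM. Oct-TyrR (TC004545) had 24.4 and 17.8 CPM in testis and 14, 11.4 and 17.3 CPM in ovary, and was not called (log2 difference 0.54, 95% interval -0.10 to 1.18), and its difference turned negative under library totals.

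Of 6 genes of ubiquitin ligases and signal transduction, 2 were lower in testis and 4 were not called, beside 21.2% lower among all gene models, with a median log2 difference of -0.75. Slmb (TC001086), the F-box protein that marks signalling proteins for degradation, had 58.0 and 56.5 CPM in testis, against 122, 130.0 and 135 CPM in ovary (log2 difference -1.15, SE 0.13, limma adjusted p = 1.52e-06). Ago (TC006451), the F-box protein that in flies targets cyclin E, had 110.5 and 112 CPM in testis, against 211, 205 and 214 CPM in ovary. The groups were clearly apart, but the log2 difference of -0.91 (95% interval -1.11 to -0.72) did not reach 2-fold. Both genes had higher means still in embryos of 0-5 hr, at 342 and 659.9 CPM. Kay (TC011870), the Fos subunit of the AP-1 transcription factor, had 59.7 and 72.8 CPM in testis, against 148, 187 and 164 CPM in ovary (log2 difference -1.31, SE 0.15, limma adjusted p = 1.29e-06). The Wnt receptor frizzled (TC014055, -0.59), the kinase adaptor Tab2 (TC005952, -0.59) and the epsin-related gene lqfR (TC012168, -0.03) were not called. Under library totals, which lower all values, ago, frizzled and Tab2 were called lower.

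**Figure D5:**
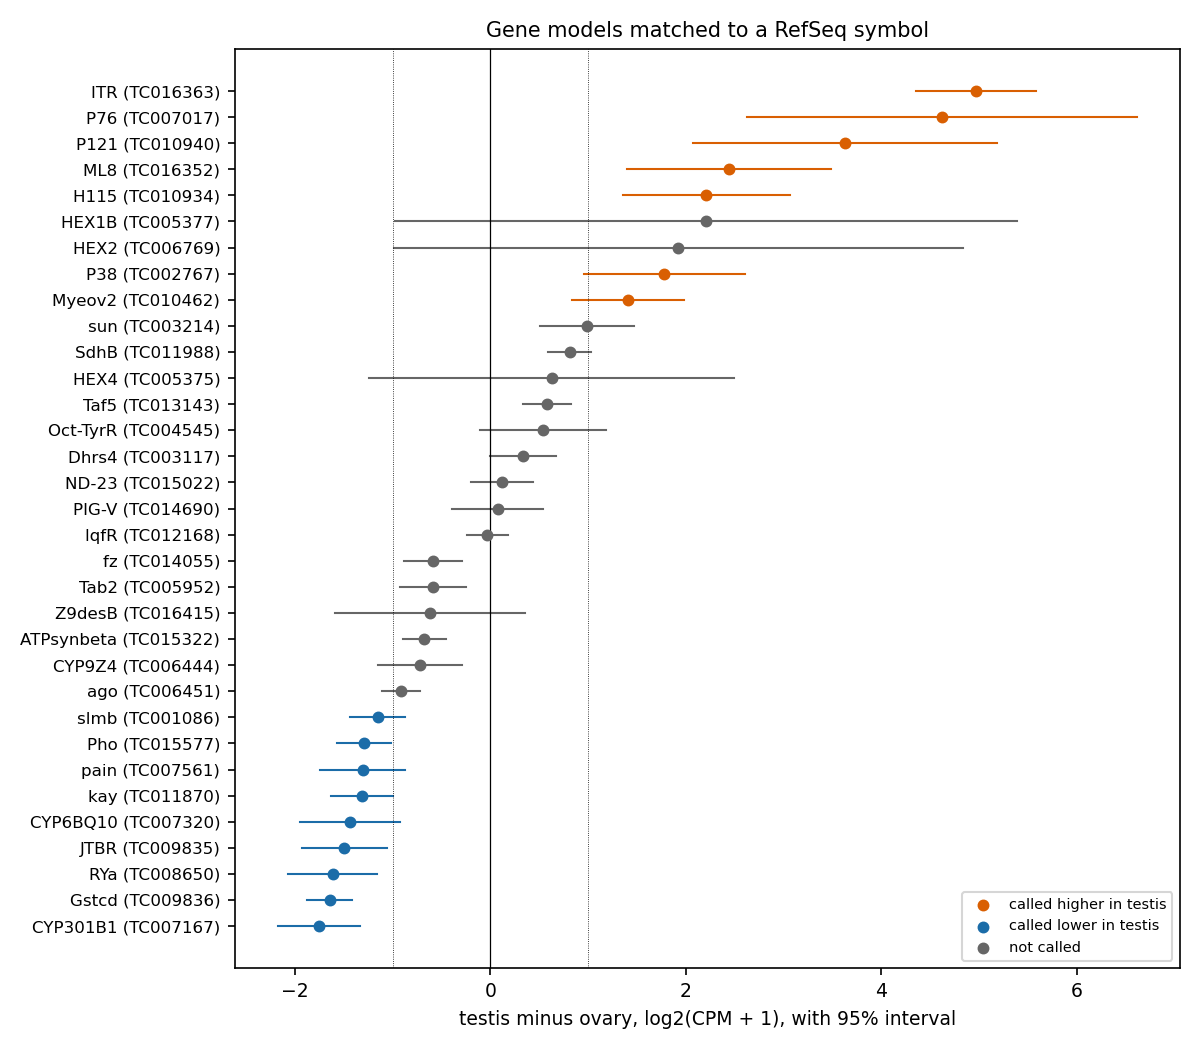
Log2 difference of testis over ovary with its 95% interval from limma for the 33 gene models with a symbol or gene name in the RefSeq table. Orange marks genes called higher in testis, blue genes called lower and grey genes not called, with dotted lines at the 2-fold threshold. ITR is the highest at 4.97 and CYP301B1 the lowest at -1.75.

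Of 4 genes of mitochondrial respiration none was called in limma as fitted, but 1 lay at the threshold. SdhB (TC011988), the iron-sulfur subunit of succinate dehydrogenase, had 158 and 141 CPM in testis, against 90.3, 80.9 and 82.9 CPM in ovary (log2 difference 0.81, 95% interval 0.59 to 1.03). ATPsynbeta (TC015322), the catalytic subunit of ATP synthase, lay the other way, with 382 and 477 CPM in testis, against 655, 749 and 646 CPM in ovary (log2 difference -0.67, 95% interval -0.90 to -0.45). A small subunit of the same enzyme, sun (TC003214), had 135 and 85.7 CPM in testis, against 69.9, 43.5 and 50.7 CPM in ovary (log2 difference 0.99). It was called higher in testis with 0.1 added, with RLE factors, by edgeR and DESeq2 on the reads and without ovary library S13 (1.18) or testis library S17 (1.31), and its value was 0.67 without S16. The complex I subunit ND-23 (TC015022) overlapped between the gonads, with 0.12. Subunits of ATP synthase thus had differences of opposite sign, and those signs were the same under library totals, while ND-23 turned negative.

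Of 3 cytochrome P450 genes, which encode oxidizing enzymes of hormone and toxin metabolism, 2 were lower in testis and 1 was not called, beside 21.2% lower among all gene models. CYP301B1 (TC007167) had 3.06 and 2.75 CPM in testis, against 10.2, 11.8 and 15 CPM in ovary (log2 difference -1.75, SE 0.20, limma adjusted p = 1.24e-06). CYP6BQ10 (TC007320) had 1.41 and 1.2 CPM in testis, against 3.81, 6.66 and 5.6 CPM in ovary (log2 difference -1.44), which was not called with 5 added to each CPM. CYP9Z4 (TC006444) was not called (-0.72), except under library totals. The 3 hexamerins, storage proteins of the blood, were not called, with 156 and 204 CPM in testis and 32.6 to 55.6 CPM in ovary for HEX2 (TC006769), whose interval of -0.99 to 4.84 was wide. That interval takes its spread from all 17 libraries, and fitted on the gonad libraries alone HEX2 (limma adjusted p = 0.00164) and HEX1B (TC005377, 0.00678) were called higher in testis. Myeov2 (TC010462), a small subunit of the COP9 signalosome, had 89.4 and 44.6 CPM in testis, against 31.7, 17 and 23.0 CPM in ovary (log2 difference 1.41), and was not called without testis library S16 (0.91), under library totals (0.77) or on the gonad libraries alone. Gstcd (TC009836), named for a glutathione transferase domain, had 22.8 and 25.3 CPM in testis, against 75, 84.5 and 72.0 CPM in ovary (log2 difference -1.64, SE 0.11, limma adjusted p = 2.58e-09), and its groups lay well apart. P76 (TC007017) had 375 and 52.3 CPM in testis and 23.2, 1.28 and 2.46 CPM in ovary, with a mean of 609.6 CPM in male carcass. The log2 difference of 4.62 for P76 was 3.21 and not called without testis library S16 (limma adjusted p = 0.0191), and it was 6.03 without S17, 5.65 without ovary library S13 and 3.95 without S14.

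The other matched genes that were higher in testis were LOC661831 (TC001262), P38 (TC002767), P121 (TC010940), H115 (TC010934), ML8 (TC016352) and LOC658291 (TC014889), with log2 differences of 1.78 to 3.63. LOC661831, P38, P121, H115 and ML8 had higher means in both carcasses than in either testis library. P121 had 131 and 38.8 CPM in testis, against 12.8, 1.13 and 5.87 CPM in ovary and a mean of 338 CPM in male carcass. P121 was 2.76 and not called without testis library S16, 4.49 without S17, 4.25 without ovary library S13 and 2.90 without S14. Without S17, LOC661831 (1.11), P38 (1.15) and ML8 (1.67) were not called, while without S16 they were 2.58, 2.41 and 3.22. LOC661831 was also not called without ovary library S13 (1.81) or S14 (1.34). On the gonad libraries alone, LOC661831, P38, P121, ML8 and P76 were not called (limma adjusted p = 0.0124 to 0.0613). LOC658291 had 33.6 and 11.2 CPM in testis, against 4.37, 3.38 and 3.29 CPM in ovary, and its log2 difference of 2.14 was 1.39 without S16 and 2.89 without S17. The remaining genes lower in testis were TC009514 (-1.29), JTBR (TC009835, -1.50) and Pho (TC015577, -1.29). Their testis and ovary libraries did not overlap, as was so for 76.1% of all gene models.

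The genes with the highest CPM in both gonads that were not called give the other end of the comparison. TC034351 had 3020.3 and 2862 CPM in testis and 2657, 2955 and 3339.7 CPM in ovary (log2 difference -0.01, 95% interval -0.35 to 0.32). TC016306 had 2145 and 2217 CPM in testis, against 2598, 2731 and 2373 CPM in ovary (log2 difference -0.23). TC006296 had 1286 and 1211 CPM in testis, against 1478, 1646 and 1497 CPM in ovary (log2 difference -0.30). These intervals leave out a 2-fold difference. TC013925 and TC008784 missed the 2-fold threshold narrowly, with 3048 and 3087 CPM in testis against 1512 to 1670.4 CPM in ovary (log2 difference 0.94) and with 1400.4 and 1548 CPM in testis against 2324 to 3180.3 CPM in ovary (log2 difference -0.84).

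Some genes differed widely between libraries of the same gonad. TC032786 had 317 CPM in testis library S16 and 6.02 CPM in S17, against 0.167, 0.304 and 0.416 CPM in ovary, and TC007959 had 160.2 and 4.19 CPM in testis, against 0.111, 0.369 and 0.227 CPM in ovary. Both were called, with log2 differences of 5.19 and 4.55, but without S16 these were 2.44 and 2.08 and not called (limma adjusted p = 0.116 and 0.145), and without S17 they were 7.94 and 7.03. The calls were also lost without ovary library S13 (limma adjusted p = 0.0102 and 0.0128) and, for TC007959, without S14 or S15. TC034924 had 170.5 and 5.05 CPM in testis and overlapped with ovary (10.1, 5.64 and 2.54 CPM); limma did not call it (adjusted p = 0.0646), while edgeR and DESeq2 on the reads did, as did limma without S17 (4.75, against -0.08 without S16). On the gonad libraries alone TC032786 and TC007959 were not called (limma adjusted p = 0.0225 and 0.0249). In male carcass all 3 genes were highest in library S11. TC032786 had 40.4, 604 and 81.6 CPM in S10, S11 and S12, TC007959 had 32.8, 442 and 58.8 CPM, and TC034924 had 141, 916 and 299.6 CPM.

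In ovary, S13 stood apart for 3 genes. TC011481 had 1559 and 1455 CPM in testis, against 316 CPM in ovary library S13 and 1.71 and 4.20 CPM in S14 and S15 (log2 difference 6.52, limma adjusted p = 0.00124). Without S13 its log2 difference was 8.65, and it was 5.22 without S14 and 5.68 without S15. It was not called without testis library S16 or S17 (limma adjusted p = 0.0132 and 0.0109), on the gonad libraries alone (0.0312), or by edgeR (likelihood ratio test 0.0104, quasi-likelihood test 0.0366) and DESeq2 (0.0126). TC006088 had 1614 and 2635 CPM in testis, against 174, 1.21 and 3.52 CPM in ovary, and its log2 difference of 7.42 was 9.35 without S13, 6.20 without S14 and 6.71 without S15. TC006088 was not called on the gonad libraries alone (limma adjusted p = 0.0145) or by the quasi-likelihood test of edgeR (0.0114). TC008234 had 71.5 and 536 CPM in testis and 200.1, 0.781 and 1.97 CPM in ovary, so that S13 was above a testis library, and the gene was not called (limma adjusted p = 0.0183), except without S13 (6.42) or with S14 as the 1 ovary library (6.79). In male carcass these genes were highest in library S11. In S10, S11 and S12, TC011481 had 604, 6766 and 1004 CPM, TC006088 had 377, 4478 and 750.2 CPM and TC008234 had 783, 2316 and 877 CPM, so that S11 carried most of each mean. Their means in female carcass were 1.45 to 12.3 CPM. The part of male tissue in this library was not tested.

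The last question is where else in the body the genes that separate the gonads were expressed. Of the 2716 genes higher in testis than in ovary, 2029 (74.7%) had their highest mean in testis, 400 in male carcass, 228 in female carcass, 15 in embryos of 0-5 hr and 44 in those of 6-11 hr. Without male carcass library S11 these numbers were 2095 in testis, 253 in male carcass and 309 in female carcass. Of the 2614 genes lower in testis than in ovary, 538 (20.6%) had their highest mean in ovary, 819 had it in female carcass, 151 in male carcass, 411 in embryos of 0-5 hr and 695 in embryos of 6-11 hr. Among the genes with a difference of 16-fold or more, 623 of 668 higher genes were highest in testis (651 without S11) and 44 of 81 lower genes were highest in ovary. These counts of the highest group rest on the authors' scaling and were not repeated under library totals. The matching shares over all gene models were not counted. In the same model, 1795 genes (14.6% of all) were called higher in testis than in ovary, male carcass and female carcass, and 658 genes (5.35%) were called higher in ovary than in testis and both carcasses. Under library totals the counts were 1285 for testis and 1929 for ovary, so which gonad had more such genes depends on the scaling. Taken alone, 27.7% of all gene models passed the same rule in testis over male carcass and 27.2% in testis over female carcass. For ovary the shares were 20.0% over male carcass and 20.1% over female carcass. The comparisons behind these counts share their gonad libraries. By level alone, 682 genes were at 5 CPM or more in both testis libraries and below it in all ovary libraries, and of these 46 were below it in all carcass libraries as well. The converse numbers were 662 genes at 5 CPM or more in all ovary libraries and below it in both testis libraries, of which 194 were below it in all carcass libraries. The median gene of the testis set stood at 1.87% to 5.18% of its testis mean in the male carcass libraries. A gene abundant in testis can thus exceed 5 CPM there at trace level. The 46 and the 194 therefore do not compare how far genes were confined to each gonad. Without testis library S17 the 662 became 1118, and under library totals the 682 became 424 and the 662 became 1001.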

How the data were processed

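Poly(A) RNA was sequenced by the authors as unpaired reads with a kit that does not mark strand, aligned with HISAT2 2.0.5 to the beetle genome Tcas5.2 and counted per gene model with BEDTools. Overlapping and antisense genes can therefore share reads. The deposited values are a signal on the CPM scale, made by the authors from counts with TMM factors of edgeR. The stated filter kept genes at 5 CPM or more in 3 or more samples, but 150 gene models (1.22%) do not reach this in the deposited values. Whole reads were recovered from these values, within 0.01 read, for 100% of 209134 values. Intervals from reads cover counting error only.

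Groups came from the sample labels, and p-values measure the spread between these libraries. Differences were fitted here with limma 3.58.1 in R 4.3.3 on log2(CPM + 1), with trended and robust moderation, a single model of 6 group means over 17 libraries and Benjamini-Hochberg adjustment over 12302 gene models. The spread of testis, with 2 libraries, is thus borrowed from all groups. A fold change on this scale understates the change of low genes. The fit was also run on simulated reads with known differences of 2-fold or 4-fold, in which all groups otherwise shared the same means. Such reads hold fewer and smaller differences than the gonads do, so that run does not check the counts given here. On the recovered reads, edgeR 4.0.16 called 2852 genes higher and 2724 lower in testis with the likelihood ratio test and 2716 and 2560 with the quasi-likelihood test, and DESeq2 1.42.0 called 2895 and 2704. Summaries used Python, pandas, scipy and matplotlib.

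Named genes were every gene with an identifier in the study; the 10 largest differences each way among called genes whose gonad libraries do not overlap; the 5 called genes each way with the highest CPM; the 5 each way with the highest CPM among genes at 3 or fewer reads in each library of the other gonad; the 5 genes not called with the highest CPM in both gonads; and the 3 genes that differ most between the testis libraries and the 3 that differ most between the ovary libraries at 50 CPM or more. Genes with a RefSeq symbol were added. Carcass means without S11 or S7 were an alternative chosen after seeing the data. The comparison, lists and thresholds were chosen with earlier results of these data known. Sequences and coordinates were not used here.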

Additional observations from a re-analysis of the deposited data

How the results depend on the processing

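Library totals in place of the authors' factors moved the median log2 difference of all genes to -0.64 (-0.017 with RLE factors) and the counts to 1690 genes higher and 4569 lower in testis, 1929 genes higher in ovary than in testis and both carcasses, 424 genes at 5 CPM or more in testis and not in ovary, and 1001 in ovary and not in testis. At a log2 threshold of 2, 1396 genes were higher and 947 lower, 973 genes were higher in testis and 217 higher in ovary than in the other gonad and both carcasses. With a level of 2 CPM, 295 genes were found in testis and not in ovary, and 423 in ovary and not in testis. The remaining alternatives, namely 0.1 or 5 added to each CPM, filters of 5 CPM, RLE factors, edgeR, DESeq2, fewer groups in the fit and an adjusted p of 0.05, kept these counts within 1.5 times.

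Leaving out 1 gonad library in turn gave 2497 to 2784 genes higher in testis, 2256 to 2868 lower, 1594 to 2091 higher in testis and 651 to 700 higher in ovary than in the other gonad and both carcasses, 700 to 884 genes in testis and not in ovary, 684 to 1118 in ovary and not in testis (1118 without S17), and medians of -0.05 to -0.02. Of 113 named genes, 73 had the same call under every alternative run and 40 changed it under at least 1, of which 17 were called with all libraries. A change of sign was seen in 13 genes, none of them called. S14 as the single ovary library, chosen after the data were seen, gave 2626 genes higher and 2436 lower. DESeq2 gave no adjusted p for 31 genes. Replicate numbers are not shared between groups. No paired analysis was possible because the groups compared share no replicate numbers. Genes under a few reads are limited by depth, at 0.0217 to 0.0589 CPM per read.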
